A study of Rattus norvegicus with 16 samples.

Results

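Egr1 (also called Zif268, NGFI-A or Krox-24), 1 of 4736 genes named on an Affymetrix rat array, was measured by 4 of its 8799 probe sets over 12 retina and 4 pineal gland arrays. Every probe set whose annotated gene symbol is Egr1 was taken: AF023087_s_at, M18416_at, rc_AI176662_s_at and U75398_s_at. All 4 passed the filter on low values, which is set on the mean over the arrays. The gene lies on rat chromosome 18, at bases 26737078 to 26740877 of GRCr8, a span of 3800 bases. Which part of the transcript each probe set covers was not analysed here. In Affymetrix naming, the suffix s marks a probe set whose probes match several transcripts.

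The arrays hold total RNA of rat retina or pineal gland, and the titles give hour 6 or hour 12 of Zeitgeber time (ZT) or of circadian time (CT). Conventionally, ZT starts at lights on under a light-dark cycle, while CT follows the internal clock when no such cycle is given. The lighting, strain, age and treatment of the rats are not stated in the labels. There were 3 retina arrays, numbered 1 to 3, in every one of the 4 conditions (ZT6, ZT12, CT6, CT12), and a single pineal array in each. Since nothing says that numbered arrays are separate animals, every p-value measures only the spread between these arrays, which may be technical. Egr1 was chosen with results of these same arrays known, so every Egr1 value here counts as one it was chosen by and is given as a description, with standard errors and without a test.

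Some labels and arrays stand apart. The pineal array titled ZT12 carries a description of 6.0 h, and the title was followed here. The source label reads retina on the pineal arrays as well, and 5 arrays, the retina arrays numbered 3 and the pineal ZT12 array, are placed under brain where the others are placed under eye. The 4 measured pineal markers (Aanat, Tph1, Asmt and Ddc) summed to intensities of 50873.1 to 69661.9 on the pineal arrays and 320.3 to 1222.9 on the retina arrays, so the tissue in the titles is borne out by their levels. CT12 array 1 had a median Spearman correlation of 0.837 with the other retina arrays, where the other 11 had 0.944 to 0.962. On it the summed intensity of 4 rod markers was 15707.1, against 189366.2 on CT12 array 2 and 260062.9 on CT12 array 3. Its 9 lens markers summed to 2786358.7, the highest of all arrays. Lens markers were lowest among the retina arrays on CT6 array 3, at 43597.8, and ZT6 array 2, at 48580.9. The retina differences of Egr1 that include CT12 array 1 or CT6 array 3 are therefore given with and without that array. Nothing here tells fewer cells of a type apart from less RNA per cell.

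EGR1 is a zinc-finger transcription factor and the product of an immediate early gene, one that is transcribed within minutes of a stimulus without new protein synthesis. Growth factors, calcium entry and synaptic activity drive its transcription through ERK signalling to serum response factor with its ELK partners, and through CREB. EGR1 binds GC-rich sites and switches on, among others, the NAB corepressors, which bind EGR proteins and limit their activity. In the retina Egr1 is known as a gene that responds to light and visual input, and amacrine cells are among its best described sites. The pineal gland makes melatonin at night under adrenergic input, and several immediate early genes are induced there by that input.

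The Egr1 promoter is shown because it holds the elements through which the gene is known to be induced, and that of its relative Egr2 because it shares an element. Both are RefSeq sequences of GRCr8, 250 bases before to 50 bases after the transcript start, 5′ to 3′ in the direction of the gene, with CArG boxes (the elements bound by serum response factor) and TGACGT (the core of the cAMP response element, bound by CREB) in capitals. TGACGT is read from the opposite strand here and so appears as ACGTCA. Egr1 is at chr18:26736828-26737127 on the plus strand and Egr2 at chr20:21054392-21054691 on the minus strand.
Egr1: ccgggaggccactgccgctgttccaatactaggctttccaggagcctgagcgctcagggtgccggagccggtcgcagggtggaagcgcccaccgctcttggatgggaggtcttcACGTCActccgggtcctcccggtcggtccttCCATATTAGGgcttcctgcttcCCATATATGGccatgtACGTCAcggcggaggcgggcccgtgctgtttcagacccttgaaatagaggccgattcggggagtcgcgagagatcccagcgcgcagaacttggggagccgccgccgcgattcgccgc
Egr2: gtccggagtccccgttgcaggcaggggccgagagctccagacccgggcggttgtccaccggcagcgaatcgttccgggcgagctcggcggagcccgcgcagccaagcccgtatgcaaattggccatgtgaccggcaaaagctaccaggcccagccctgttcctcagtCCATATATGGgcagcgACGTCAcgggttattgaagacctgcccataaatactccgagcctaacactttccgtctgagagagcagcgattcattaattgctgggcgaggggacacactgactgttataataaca

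The Egr1 promoter held 2 CArG boxes, which begin 105 and 83 bases before the start, and 2 TGACGT matches, which begin 136 and 67 bases before it. None of these 4 matches overlapped another. The Egr2 promoter held a CArG box of the same 10 letters 83 bases before its start, and TGACGT again 67 bases before it. Among all 33469 promoters of this length, searched on both strands, 1.64% held a CArG box, and 7 promoters held 2 or more. TGACGT occurred in 7.94% of them, GCGNGGGCG (the EGR binding site) in 4.98%, TGANTCA (the AP-1 site) in 7.33% and CACGTG (the E-box) in 6.42%. Of 22 genes sought in the promoter table, 16 were found. Nab1, which encodes a corepressor of EGR proteins, held 4 GCGNGGGCG matches and Nr4a1 held 1, while Egr4 held 2 TGACGT matches. A match describes the letters of the window and not a bound site.

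Under ZT, Egr1 was many times brighter in the retina at hour 12 than at hour 6. With AF023087_s_at, the deposited intensities at ZT6 were 2012.5, 2175.9 and 2620.8 on arrays 1 to 3. At ZT12 they were 99687.4, 121535.5 and 96717.1. Every ZT12 array lay far above every ZT6 array, and the 3 arrays within each group were close to one another. On the scale of all later differences, log2 of the intensity plus 16 after quantile normalization of the retina arrays, the group levels were 11.12 ± 0.19 at ZT6 and 16.76 ± 0.30 at ZT12 (SD, n = 3). The difference was 5.64 with a standard error of 0.68, a 50-fold higher level at ZT12.

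The other probe sets gave the same direction with other sizes. M18416_at read 546.7, 226.8 and 361.9 at ZT6 and 18450.5, 23381.0 and 24296.8 at ZT12. Its difference of 5.94 ± 0.78 (SE) was a 61.3-fold higher level. The probe set rc_AI176662_s_at read 332.1, 402.7 and 311.2 at ZT6 and 2928.3, 7043.1 and 8788.0 at ZT12, with a difference of 4 ± 0.47 or 16-fold. U75398_s_at read 796.6, 1266.4 and 1000.0 at ZT6 and 2375.9, 3429.5 and 4079.8 at ZT12, with a difference of 1.68 ± 0.34 or 3.21-fold. Thus the 4 probe sets agreed that ZT12 was higher and spanned 3.21-fold to 61.3-fold in how much. All ZT12 arrays were above all ZT6 arrays with each of the 4 probe sets, an ordering that 10.3% of the 5244 probe sets tested showed in that direction. By absolute difference they ranked 1 (M18416_at), 2 (AF023087_s_at), 4 (rc_AI176662_s_at) and 28 (U75398_s_at) of the 5244. The floor of the filter on the mean of the retina arrays was 8.88. At ZT6 the group means of M18416_at (8.49) and rc_AI176662_s_at (8.45) lay below it, so their folds rest on low ZT6 values. The mean of rc_AI176662_s_at was also below it at CT6 (8.71).

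**Figure D1:**
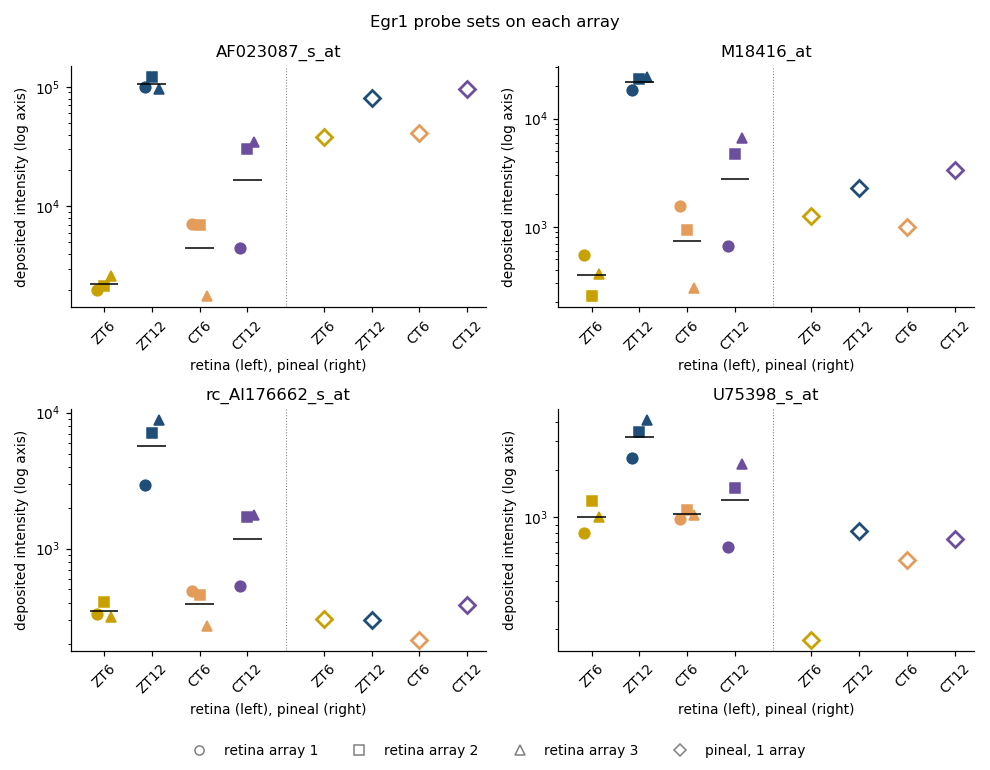
Deposited intensity of the 4 Egr1 probe sets (log axis, one panel each) on every array: retina at left with 3 arrays per condition and a black bar for their geometric mean, pineal at right with 1 array per condition. The ZT12 retina arrays lie above all other retina arrays in all 4 panels, and CT12 array 1 lies below the other CT12 arrays.

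Under CT the hour 12 arrays did not form one level. AF023087_s_at read 7166.2, 6961.2 and 1765.8 on CT6 arrays 1 to 3, and 4503.9, 30481.7 and 34518.4 on CT12 arrays 1 to 3. CT12 arrays 2 and 3 were above every CT6 array, and CT12 array 1 lay inside the CT6 range. The group levels were 12.11 ± 1.13 at CT6 and 14.07 ± 1.48 at CT12 (SD, n = 3). The difference was 1.97 with a standard error of 0.68, or 3.9-fold. Without CT12 array 1, the mean of arrays 2 and 3 was 14.92, which is 2.81 above CT6 or 7.03-fold. Without CT6 array 3, and with the remaining arrays normalized again, the difference was 1.32, and it was 1.29 with M18416_at, 1.30 with rc_AI176662_s_at and 0.38 with U75398_s_at. With AF023087_s_at it was 0.82 without all arrays numbered 3.

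M18416_at followed the same arrays, with 1562.1, 932.5 and 272.2 at CT6 and 658.1, 4744.0 and 6567.8 at CT12. Its difference was 1.96 ± 0.78, a 3.9-fold higher level, and 7.63-fold without CT12 array 1. For rc_AI176662_s_at the values were 487.7, 452.5 and 267.5 at CT6 and 529.4, 1705.8 and 1772.8 at CT12. This was the only Egr1 probe set with all CT12 arrays above all CT6 arrays, an ordering shown by 10.6% of the probe sets tested, and its difference was 1.54 ± 0.47 or 2.91-fold, and 4.11-fold without CT12 array 1. U75398_s_at read 975.5, 1118.8 and 1041.0 at CT6 and 651.0, 1524.9 and 2168.4 at CT12, a difference of 0.36 ± 0.34 or 1.29-fold, and 1.71-fold without CT12 array 1.

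The source label splits these arrays. Within the arrays numbered 1 and 2, AF023087_s_at differed between hours by 5.77 under ZT and by 0.81 under CT. Within the single arrays numbered 3, the differences were 5.38 under ZT and 4.27 under CT. With this probe set the ZT difference was thus of like size under both source labels. Its CT difference was small where CT12 array 1 entered and large between the lowest CT6 array and the highest CT12 array. With M18416_at the ZT difference was 5.87 within arrays numbered 1 and 2 and 6.08 within those numbered 3. It was 3.6 and 4.79 with rc_AI176662_s_at, and 1.53 and 1.99 with U75398_s_at. Some but not all markers were low on CT12 array 1. Its 7 measured amacrine markers summed to 14946.6, against 50472.2 and 69191.5 on CT12 arrays 2 and 3. Within that list Slc6a5 went the other way, with 923.5 on array 1 against 602.7 and 865.3. The Muller glia markers differed less, with a sum of 107225.6 against 113488.8 and 123773.4. The part of these markers in the low Egr1 level was not tested.

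The regimes were closer at hour 6 than at hour 12. With AF023087_s_at, CT6 was above ZT6 by 0.99 ± 0.68 (SE), or 1.99-fold. CT6 arrays 1 and 2 lay above all ZT6 arrays and CT6 array 3 lay below them all. The differences with M18416_at, rc_AI176662_s_at and U75398_s_at were 1.09, 0.26 and 0.09, and the groups overlapped with each. Without CT6 array 3 the AF023087_s_at difference was 1.64, over 1.5 times the value with it, and without CT6 array 1 it was 0.65. The other probe sets gave 1.75 (M18416_at), 0.50 (rc_AI176662_s_at) and 0.08 (U75398_s_at) without CT6 array 3. Atf3, a stress-induced member of the ATF family and 1 of the immediate early genes examined, separated the same CT6 array: it read 806.9 and 586.2 on CT6 arrays 1 and 2 and 7314.0 on CT6 array 3, where the ZT6 arrays read 4393.6 to 6599.0.

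At hour 12 all CT12 arrays were below all ZT12 arrays with each of the 4 probe sets, an ordering that 16.1% of the probe sets tested showed. AF023087_s_at was lower at CT12 with a difference of -2.69 ± 0.68 (SE), or 6.44-fold. M18416_at was 7.38-fold lower, rc_AI176662_s_at 4.6-fold lower and U75398_s_at 2.34-fold lower. Without CT12 array 1, ZT12 exceeded CT12 by 3.58-fold, 3.77-fold, 3.26-fold and 1.76-fold in the same order of probe sets. The lower level under CT was therefore also present on CT12 arrays 2 and 3, at a smaller size for each probe set.

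The time effect under ZT exceeded that under CT by 3.68 ± 0.97 (SE) on the log2 scale with AF023087_s_at. The other probe sets gave 3.98 ± 1.11 (M18416_at), 2.46 ± 0.66 (rc_AI176662_s_at) and 1.32 ± 0.48 (U75398_s_at). With CT12 array 1 left out and the rest normalized again, it was 2.8, 2.97, 1.95 and 0.91 in the order AF023087_s_at, M18416_at, rc_AI176662_s_at and U75398_s_at. With CT6 array 3 left out instead, it was 4.34, 4.64, 2.69 and 1.30 in that order. The direction was the same in all 4 probe sets with all arrays and without either array, which share their RNA and so are not replicates of one another.

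**Figure D2:**
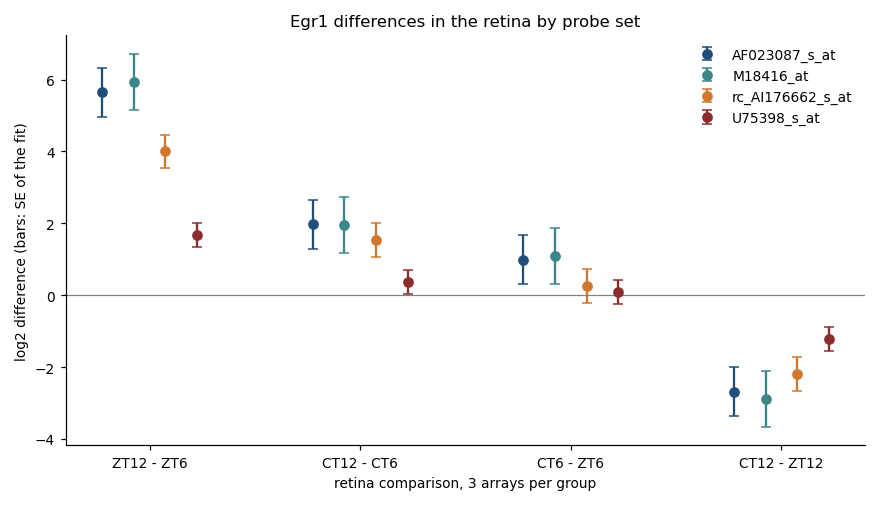
Log2 differences of the 4 Egr1 probe sets in the 4 retina comparisons, with the standard error of the fit as bars and 3 arrays per group. ZT12 minus ZT6 runs from 1.68 to 5.94, and CT12 minus ZT12 lies below 0 for all 4 probe sets.

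Over the 12 retina arrays the levels of the 4 probe sets rose and fell together, least closely for U75398_s_at. The correlation with AF023087_s_at was 0.99 for M18416_at, 0.97 for rc_AI176662_s_at and 0.903 for U75398_s_at (Pearson, n = 12 arrays, all from the same RNA). By Spearman correlation, which compares the order of the arrays, it was 0.958, 0.944 and 0.769 in the same order. The SD over these arrays was 2.39 on the log2 scale for AF023087_s_at, rank 9 of 5244 probe sets. M18416_at had an SD of 2.53 (rank 8), rc_AI176662_s_at 1.75 (rank 46) and U75398_s_at 0.80 (rank 578).

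The genes whose levels most resembled Egr1 over the 12 retina arrays were ranked by Pearson correlation with AF023087_s_at among 3172 other genes, as a description. Fos, which encodes a subunit of the AP-1 factor, ranked first at 0.928 and was the only gene at or above 0.9. It was followed by Ak4 (a mitochondrial adenylate kinase) and Lman1 (a cargo receptor of the secretory pathway), each at 0.889. Samd1 (a CpG island binding protein) stood at 0.864, Map2k1 (the MEK1 kinase of the ERK pathway) at 0.856, Slc25a30 (a mitochondrial carrier) at 0.848, Hs6st1 (a heparan sulfate sulfotransferase) at 0.824 and Adra1b (an adrenergic receptor) at 0.821. Lowest were Limk2 (a kinase that acts on cofilin) at -0.952, Exoc7 (an exocyst subunit) at -0.926, Tcta at -0.917 and Pde6d (a carrier of prenylated proteins in photoreceptors) at -0.896. The median over all genes was -0.021, and 5% of the genes lay below -0.582 and 5% above 0.457. These arrays share 4 conditions, and Egr1 spans a wide range between them, so a gene that differs between ZT12 and the other groups ranks high or low.

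The genes like Egr1 moved by much smaller amounts. Slc25a30 read 2095.6, 3223.4 and 2439.0 at ZT12 and 576.4 to 817.9 at ZT6, a difference of 1.95, and its CT12 minus CT6 difference was 0.04. Hs6st1 differed by 1.10 under ZT and -0.02 under CT. Ak4 differed by 1.06 under ZT and 0.57 under CT, and Adra1b by 0.68 under each. Without CT12 array 1 the CT differences were 0.22 for Slc25a30, 0.01 for Hs6st1, 0.97 for Ak4 and 0.95 for Adra1b. Limk2, which ran opposite to Egr1, read 7211.2, 9081.7 and 7545.4 at ZT6 and 3747.7, 3079.9 and 3526.0 at ZT12, a difference of -1.20. Slc25a30 and Hs6st1 were therefore close to their hour 6 level at CT12, where Egr1 on CT12 arrays 2 and 3 was not.

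Over the 11 arrays without CT12 array 1, the order at the top changed. Gadd45a (a growth arrest and DNA damage gene) led at 0.969, followed by Nr4a1 (an orphan nuclear receptor and immediate early gene) at 0.968, Reep2 (a shaper of the endoplasmic reticulum) at 0.937 and Fos at 0.928. Over all 12 arrays Gadd45a stood at 0.465, Reep2 at 0.536 and Nr4a1 at 0.82. On CT12 array 1, Nr4a1 read 212.4 against 2946.3 and 4782.3 on the other CT12 arrays, while Gadd45a read 16986.8 against 6308.5 and 5511.7.

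**Figure D3:**
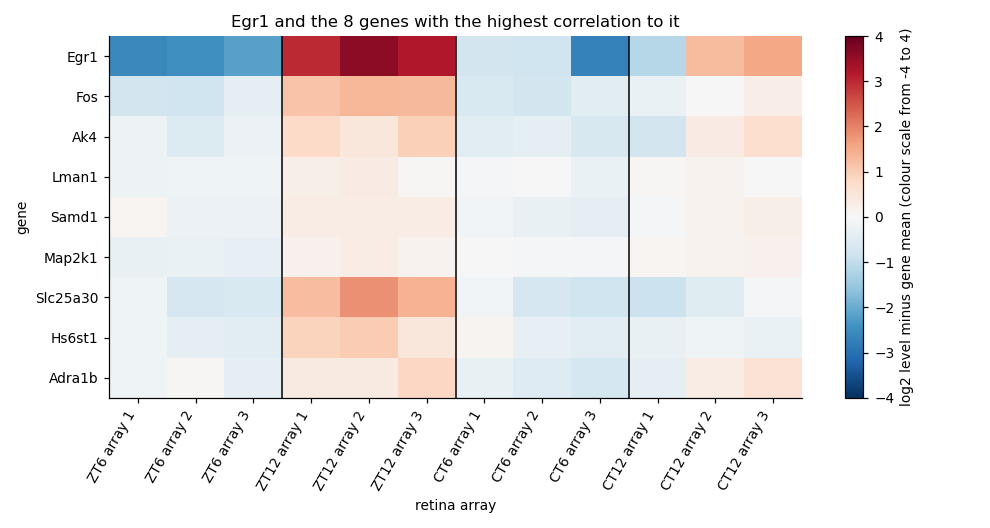
Log2 level of Egr1 (AF023087_s_at) and of the 8 genes most like it over the 12 retina arrays, each minus its own mean over the arrays, on a colour scale from -4 to 4. The 3 ZT12 columns are the highest for Egr1, and Fos and Slc25a30 show the same columns at smaller size.

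Of the other members of the EGR family, 3 are on the array, and 1 passed the filter on low values. Egr2, a zinc-finger factor known from myelinating glia, read 51.0 to 260.9 on the retina arrays and did not pass the filter. Egr3, a relative induced by activity in neurons and muscle, read 43.1 to 554.7 there and did not pass it either. Egr4 differed between ZT12 and ZT6 by -0.07 ± 0.36 (adjusted p = 0.99) and between CT12 and CT6 by -0.24 ± 0.36 (adjusted p = 0.645, limma). Nab1, the measured corepressor, differed by 0.78 ± 0.23 under ZT (adjusted p = 0.296, limma) and by -0.07 ± 0.23 under CT (adjusted p = 0.844), or -0.24 without CT12 array 1. In the retina the large hour difference of Egr1 was not seen in these relatives at the depth of signal they had.

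Immediate early genes other than Egr1 were read next, since they share inputs with it. Of 48 such genes, 35 are on the array and 29 passed the filter. Between ZT6 and ZT12, 1 of the 29 rose and none fell at an adjusted p under 0.05, where 0.286% of the 5244 probe sets tested were called (0.267% higher and 0.0191% lower). Their median difference was 0.17 on the log2 scale, against -0.04 for all genes. The lists count genes, while these shares count probe sets. By gene, each by its brightest probe set, 0.189% of 3173 were called between ZT6 and ZT12. The share by gene was 0.0315% between CT6 and CT12 and 0.504% between ZT12 and CT12. The gene that rose was Fos. Its brightest probe set read 2557.1, 2346.8 and 3208.5 at ZT6 and 9046.7, 10382.6 and 9914.6 at ZT12. The groups did not overlap, and the difference was 1.89 ± 0.18 (SE, adjusted p = 0.00279, limma), or 3.71-fold. The call was lost when the arrays numbered 3 were left out together (adjusted p = 0.0685). Among those that did not pass, Nr4a1 differed by 2.33 ± 0.84, Junb (an AP-1 subunit) by 1.35 ± 0.41 and Atf3 by -1.57 ± 0.72.

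CT12 array 1 is in neither of these groups and enters this comparison through the shared normalization, filter and estimate of spread. Without it, 4 of the 29 immediate early genes rose between ZT6 and ZT12, against 1.51% of probe sets called (0.915% higher). By gene, 1.52% were called. The 4 that rose were Fos, Nr4a1 (2.33 ± 0.19, adjusted p = 0.000274, limma), Junb (1.35 ± 0.23, adjusted p = 0.0251) and Gadd45a (0.89 ± 0.12, adjusted p = 0.00758). Nr4a1 read 963.8, 1155.9 and 883.4 at ZT6 and 4922.4, 4867.8 and 5303.3 at ZT12. The ZT values of Nr4a1 were tight within each group, and its wide standard error in the fit of all arrays came with 212.4 on CT12 array 1. The other Nr4a1 probe set, U17254_at, read 995.8 to 1137.7 at ZT6, 2596.1 to 3245.5 at ZT12 and 969.6 on CT12 array 1.

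Between CT6 and CT12, none of the 29 immediate early genes passed with limma, where 0.0381% of all probe sets were called and 1440 of the 5244 had an unadjusted p under 0.05. The largest differences were those of Cdkn1a (the cell cycle inhibitor p21, -1.26 ± 0.28, adjusted p = 0.0953), Nptx2 (a secreted synaptic protein, -1.24 ± 0.52) and Jun (an AP-1 subunit, -1.06 ± 0.44). Nptx2 differed by -0.43 ± 0.16 without CT12 array 1, where Cdkn1a (-1.33 ± 0.31) and Jun (-1 ± 0.50) stayed near these values. Fos differed by 0.61 ± 0.18 (adjusted p = 0.127). Its brightest probe set read 2701.6, 2470.6 and 3012.1 at CT6 and 2756.1, 3879.8 and 4846.5 at CT12. As deposited, CT12 array 1 was in the CT6 range and the other CT12 arrays were above it, as with Egr1, while after normalization all CT12 arrays were above all CT6 arrays for this probe set. Without that array, Nr4a1 rose by 1.59 ± 0.21 (adjusted p = 0.0287, limma), where 0.0381% of probe sets were called higher, and Fos differed by 0.74 ± 0.16 (adjusted p = 0.0836).

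At hour 12, 2 of the 29 immediate early genes were lower under CT than under ZT and none were higher, where 0.61% of all probe sets were called (0.496% lower and 0.114% higher). Fos fell by 1.24 ± 0.18 on the log2 scale (adjusted p = 0.024, limma). Cdkn1a fell by 1.57 ± 0.28 (adjusted p = 0.0439), with 880.4, 1023.8 and 926.5 at ZT12 and 303.7, 262.0 and 423.3 at CT12. With CT12 array 1 left out, Fos passed, beside 0.534% of probe sets called lower, and Cdkn1a did not (adjusted p = 0.0504). Leaving out any 1 of ZT12 arrays 1, 2 and 3 or of CT6 array 1 also ended the call of Fos, at adjusted p values of 0.0538 to 0.141, as did testing without the filter (0.0595) and leaving out the arrays numbered 3 (0.0769). The call of Cdkn1a held in 2 of the 12 fits that left out 1 retina array, those without CT6 array 1 or CT12 array 3, and in 4 of 8 other settings. At hour 6 no listed gene passed between the regimes (limma, 0% of all probe sets called, 266 at an unadjusted p under 0.05), and neither did any in the difference between the time effects, where 0.0191% were called and 842 had an unadjusted p under 0.05.

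The known inputs to the Egr1 promoter, which include kinases of the ERK pathway, their phosphatases and CREB, had 19 of 33 genes on the array and 16 past the filter. None passed between ZT6 and ZT12, where 0.286% of all probe sets were called, and their median difference was 0.09. The largest were Dusp1 (a phosphatase of MAP kinases, itself an immediate early gene) at 1.19 ± 0.82, Dusp5 (a nuclear ERK phosphatase) at 1.00 ± 0.36 and Map2k2 (the MEK2 kinase) at -0.59 ± 0.23. When CT12 array 1 was left out, Map2k1 rose by 0.48 ± 0.10 between ZT6 and ZT12 (adjusted p = 0.0473, limma), 1 of the 16 against 1.51% of all probe sets called. None of the 16 passed between CT6 and CT12, where 0.0381% of probe sets were called. Ntrk2 (the BDNF receptor) had the largest difference with all arrays, -1.54 ± 0.66. It was -0.55 ± 0.29 without CT12 array 1, where Bdnf (the growth factor itself) was at -1.18 ± 0.60.

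Genes reported as EGR1 targets had 38 of 51 members on the array and 27 past the filter, and none passed between ZT6 and ZT12 with all arrays, where 0.286% of probe sets were called. Their median difference was 0.05. When the same array was left out, Gadd45a, which is also on the immediate early list, was the 1 of 27 that rose, against 1.51% of probe sets called and 0.915% higher. Between CT6 and CT12 none passed, where 0.0381% of probe sets were called, with Drd1 (a dopamine receptor) at -1.99 ± 0.75, Lhb (the luteinizing hormone beta subunit) at 1.81 ± 0.39 and Fn1 (fibronectin) at 1.12 ± 0.34. Without CT12 array 1 these were -0.81 ± 0.19, 1.35 ± 0.30 and 0.77 ± 0.28 in the same order. Between CT12 and ZT12 none of the 27 passed either, where 0.61% of probe sets were called.

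In the pineal, Egr1 was higher at hour 12 than at hour 6 with AF023087_s_at under both regimes. The intensities were 38171.7 at ZT6 and 81269.8 at ZT12, and 41241.4 at CT6 and 95739.8 at CT12. The log2 differences were 1.09 and 1.21, or 2.13-fold and 2.32-fold, with 1 array per condition and so no replicate check. A difference of at least 1 upward was seen in 4.71% of the 5244 probe sets under ZT, in 4.6% under CT and in 1.58% under both. The pineal hour differences under ZT and CT were thus close to each other with this probe set.

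The other probe sets did not all repeat this. M18416_at read 1268.4 and 2282.1 at ZT6 and ZT12 (1.79-fold) and 996.0 and 3324.3 at CT6 and CT12 (3.3-fold). U75398_s_at differed by 2.17 under ZT and 0.42 under CT, and rc_AI176662_s_at by -0.01 and 0.81. Only AF023087_s_at reached 1 under both regimes. With rc_AI176662_s_at the 4 pineal values, 212.9 to 386.2, were as low as those of the retina at hour 6. With all 16 arrays normalized together the filter floor was 8.81. The pineal values of rc_AI176662_s_at at CT6 (8.22), ZT6 (8.60) and ZT12 (8.69) and of U75398_s_at at ZT6 (7.85) lay below it.

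Immediate early genes in the pineal were read by the same fold of at least 1 on the log2 scale under both regimes. Of 30 that passed the filter, 6 were higher at hour 12 and 1 was lower, where 48 of all 3172 genes were higher and 40 lower. Counted over the 5244 probe sets instead of genes, 1.58% were higher and 1.35% lower. The 6 were Per2 (a clock gene), Nr4a1, Crem (a relative of CREB whose ICER form represses its targets), Junb, Homer1 (a postsynaptic scaffold) and Nr4a3 (an orphan nuclear receptor). Nr4a1 read 980.9 and 9201.5 at ZT6 and ZT12 and 1076.1 and 8772.4 at CT6 and CT12. Per2 read 67.9 and 1044.8 under ZT and 43.8 and 1724.8 under CT. The gene that was lower was Sgk1, a kinase induced by glucocorticoids, at -1.85 and -2.39. For Junb the probe sets disagree: rc_AA891041_at differed by 1.8 and 1.33 and X54686cds_at by -1.70 and -1.17. For Nr4a1 the values above are those of U17254_g_at, which differed by 3.21 and 3.01. The other Nr4a1 probe set, U17254_at, differed by 0.99 and 0.37 and did not reach the fold under either regime.

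Fos did not accompany Egr1 in the pineal. Its brightest probe set read 2607.2, 1790.1, 2014.2 and 1685.1 at ZT6, ZT12, CT6 and CT12, so hour 12 was 1.45-fold lower under ZT and 1.19-fold lower under CT. Its other probe sets gave -0.92 and -0.75 (X03347cds_g_at) and 0.98 and 0.20 (X06769cds_at), the last from intensities of 101.2 to 214.8. Egr2 and Egr3 did not pass the filter, although Egr2 read 959.4 to 1610.5 in the pineal. None of the 27 reported targets reached the fold under both regimes, and of the 16 promoter inputs 1 did, Crem.

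**Figure D4:**
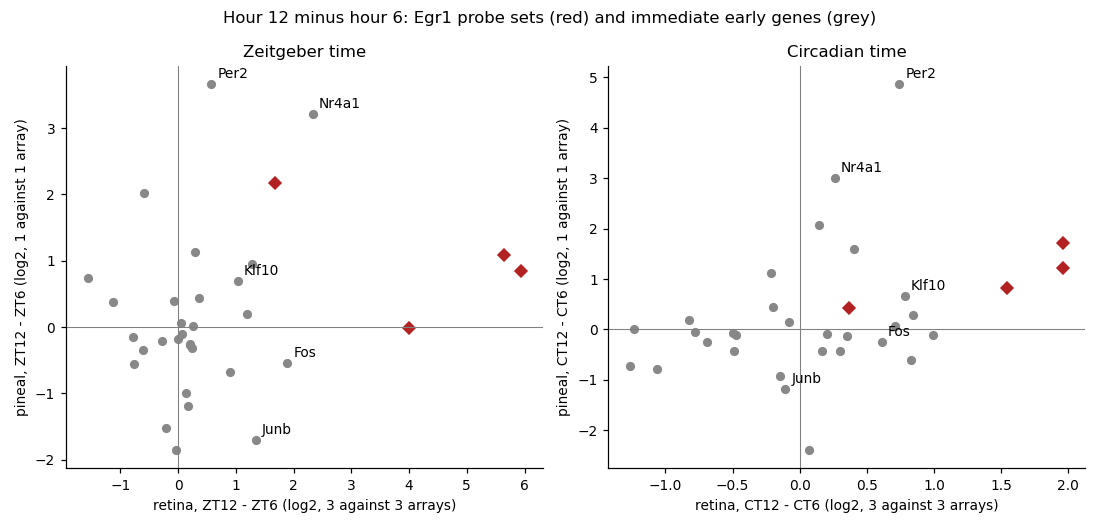
Hour 12 minus hour 6 (log2) under ZT and under CT, in the retina (means of 3 arrays) and the pineal (1 array per condition), for Egr1 and immediate early genes. Egr1 differs by 5.64 and 1.97 in the retina and by 1.09 and 1.21 in the pineal, and Nr4a1 by 3.21 and 3.01 in the pineal. The other Nr4a1 probe set, U17254_at, differs by 0.99 and 0.37 in the pineal.

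Over all conditions together, the sign of the Egr1 difference between the tissues depended on the probe set. With all 16 arrays normalized together and condition as a term, AF023087_s_at was lower in the retina, at -2.42 ± 0.63 (SE). M18416_at differed by -0.10 ± 0.72, rc_AI176662_s_at by 1.24 ± 0.51 and U75398_s_at by 1.04 ± 0.29. In this fit over all conditions, no tissue order of Egr1 held across its 4 probe sets. For scale, 75.9% of the 5244 probe sets differed between the tissues, 36.5% higher and 39.4% lower in the retina.

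With AF023087_s_at the levels ran, from low to high, retina ZT6 (11.02 ± 0.20), retina CT6 (10.69 to 12.83 on its arrays), retina CT12 (14.10 ± 1.49), pineal ZT6 (15.16), pineal CT6 (15.33), pineal ZT12 (16.42), pineal CT12 (16.71) and retina ZT12 (16.73 ± 0.31; SD, n = 3 in the retina). Retina CT6 overlapped retina ZT6 and retina CT12, and pineal CT12 lay inside the range of the retina ZT12 arrays, 16.46 to 17.06. The pineal was 17.6-fold above the retina at ZT6, 9.38-fold at CT6 and 6.13-fold at CT12. At ZT12 it was just below the lowest retina array. With M18416_at the retina at ZT12 was 8.39-fold above the pineal, and with rc_AI176662_s_at 13.6-fold.

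Control probe sets of the RNA ends differed between the tissues for Gapdh and beta-actin. The ratio of 3′ to 5′ intensity for Gapdh was 13.668 to 17.894 on the pineal arrays and 1.071 to 1.652 on the retina arrays, the highest of the retina on CT12 array 1. For beta-actin it was 5.144 to 8.717 in the pineal and 1.083 to 1.455 in the retina. Hexokinase did not separate the tissues, with 1.347 to 2.389 in the retina. In the pineal its ratio was 0.968 at ZT6, 1.249 at ZT12, 8.05 at CT6 and 4.03 at CT12. The part of this ratio in the disagreement between Egr1 probe sets was not tested.

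**Figure D5:**
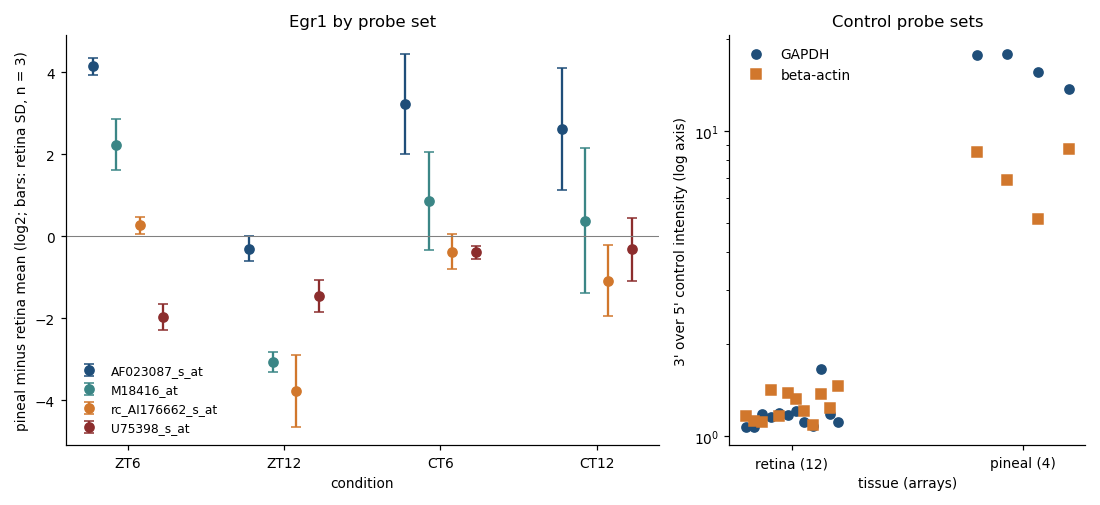
Left, pineal minus retina (log2) of the 4 Egr1 probe sets in each condition, with the SD of the 3 retina arrays as bars. Right, the 3′ to 5′ intensity ratio of control probe sets on 12 retina and 4 pineal arrays (log axis), with Gapdh at 13.668 to 17.894 in the pineal.

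Relatives and partners of Egr1 also differed between the tissues, as most genes did. Nab1 was higher in the retina by 1.10 ± 0.21 (adjusted p = 0.000231, limma) and Egr4 by 0.93 ± 0.31 (adjusted p = 0.0138). Of 30 immediate early genes, 9 were higher and 11 lower in the retina. Dusp1 was higher by 3.96 ± 0.55 (adjusted p = 1.33e-05), and Klf10 (a zinc-finger factor induced by TGF-beta) fell by 2.95 ± 0.21 from pineal to retina (adjusted p = 1.77e-08). Of the 16 promoter inputs, 7 were higher and 3 lower in the retina, among them Creb1 (2.49 ± 0.18, adjusted p = 1.38e-08) and Map2k1 (-1.39 ± 0.10, adjusted p = 1.61e-08). Of the 27 reported targets, 13 were higher and 11 lower. The shares that differed were 66.7% of the immediate early genes, 62.5% of the promoter inputs and 88.9% of the reported targets, beside 74.1% of all 3172 genes.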

How the data were processed

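Per the labels, 16 arrays of total RNA from rat retina and pineal were measured. The deposited values are linear intensities of 8799 probe sets, while no source used here states which software, background correction or scaling the authors used. Trimmed means (2% at each end) were 2503 to 2506 on all arrays. Precision is limited by how many arrays each group has, since arrays hold no counts.

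The 59 control probe sets were left out. Intensities plus 16 were taken to log2, and the 12 retina arrays, or all 16 for the tissue comparison, were quantile normalized. Pineal differences used the values as deposited. Probe sets whose mean reached the 40th percentile were kept (5244). Differences came from limma 3.58.1 in R 4.3.3, 1 coefficient per retina group, with Benjamini-Hochberg adjustment over the 5244 and a threshold of 0.05, after a check on simulated data. Genes with several probe sets are given by the brightest. The annotation of probe sets names 4736 genes from 7006 with 1 symbol, while 308 carry several and 1426 none.

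Named genes are all Egr1 probe sets, EGR and NAB members, Fos and Nr4a1, in each list up to 6 genes that passed and 3 that did not, and the most and least like Egr1. Slc25a30, Hs6st1 and Limk2 were singled out after their values were seen, and so were Creb1, Klf10 and Map2k1 in the tissue comparison. The members and lists were chosen with earlier results of these data known. Same-numbered arrays deviated together in 5 of 18 pairs (correlation over 0.1), and numbers were not taken as pairs in the main fit. Between CT6 and CT12, same-numbered arrays correlated at 0.08 to 0.358 and other pairs at -0.36 to 0.046. Pairing there is therefore not excluded, and a fit with the number as a block is among the alternatives. Alternatives were other offsets, normalizations, filters, variance models, probe sets and arrays left out.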

Additional observations from a re-analysis of the deposited data

Results flagged for a closer look

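Among 31 immediate early, EGR and NAB genes, 5 had retina arrays that did not overlap between the hours under at least 1 regime and pineal differences of the opposite sign to it. This was so under both regimes for Fos and Gadd45a, under ZT alone for Junb, and under CT alone for Ier3 and Rheb. Retina arrays that did not overlap, with hour 12 higher, were seen for 10.3% of the 5244 probe sets under ZT and 10.6% under CT. The share with hour 12 lower, the direction of Rheb in the retina, is not given here. The share of all probe sets that also had the opposite sign in the pineal was not counted, so the count of 5 is a description only. The difference between the tissues was not tested, and the pineal has 1 array per condition. Fos differed by 1.89 in the retina and -0.54 in the pineal under ZT, and by 0.61 and -0.26 under CT. Another Fos probe set, X06769cds_at, was higher at hour 12 in the pineal, by 0.98 under ZT and 0.20 under CT, from low intensities. Gadd45a differed by 0.90 and -0.68 under ZT and by 1.00 and -0.11 under CT, where the retina value was 0.52 without CT12 array 1. Junb differed by 1.35 and -1.70 under ZT with X54686cds_at, and its other probe set was higher at hour 12 in the pineal, by 1.8. Under CT, Ier3 differed by 0.35 in the retina and -0.13 in the pineal, and Rheb by -0.20 and 0.44.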

How the results depend on the processing

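Of 133 alternative values of 8 Egr1 differences, 119 kept their sign and lay within 1 SD between retina replicates of the value reported (the pineal, with no replicates, was read against the SD of 0.25 at ZT6 and ZT12 in the retina), 12 kept their sign and moved further, and 2 reversed. The 2 pineal differences had 5 alternatives each, which did not take each other probe set alone. Those gave 0.84 (M18416_at), -0.01 (rc_AI176662_s_at) and 2.17 (U75398_s_at) under ZT, and 1.72, 0.81 and 0.42 under CT. A variance model cannot change a difference, and nor can a replicate block where each number occurs once per retina group. Their values among the 133 were therefore fixed in advance. ZT12 minus ZT6 was 5.54 to 5.65 with other offsets and normalizations, 5.85 without the arrays numbered 3 and 5.5 with its arrays fitted alone. Leaving out 1 array at a time gave 5.49 to 5.77 there, 1.32 to 2.75 for CT12 minus CT6, 0.65 to 1.64 for CT6 minus ZT6, -3.19 to -1.81 for CT12 minus ZT12, 2.8 to 4.34 for the difference of time effects and -3.32 to -1.85 for retina minus pineal.

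The probe set mattered most. ZT12 minus ZT6 was 4.32 as the mean of the 4 probe sets, 5.94 with M18416_at, 4 with rc_AI176662_s_at and 1.68 with U75398_s_at. U75398_s_at alone gave 0.36 for CT12 minus CT6, 0.09 for CT6 minus ZT6, -1.22 for CT12 minus ZT12 and 1.32 for the difference of time effects, where rc_AI176662_s_at gave 2.46. Retina minus pineal was -0.06 as the mean of probe sets and -0.10 with M18416_at, and reversed to 1.24 with rc_AI176662_s_at and 1.04 with U75398_s_at. Without the arrays numbered 3, the difference of time effects was 5.03.

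Counts of probe sets called by limma moved more, and the cause was not tested. For ZT12 against ZT6 the count was 15, and 9 with values as deposited, 6 without the filter, 0 without the arrays numbered 3 (Fos then at an adjusted p of 0.0685), 87 when these arrays were fitted alone, and 1 to 79 on leaving out 1 array, the highest without CT12 array 1 and the lowest without ZT6 or ZT12 arrays 2 or 3. For CT12 against CT6 it was 2, and 5 with an offset of 1, 9 with a common median, 0 without the filter, 8 with the 60th percentile filter, 1 without the arrays numbered 3, 0 when fitted alone, and 0 to 1302 on leaving out 1 array, the highest without CT12 array 3 and the lowest without CT6 array 2. For CT12 against ZT12 it was 32, and 21 as deposited, 73 with a common median, 3 without the filter, 21 with the 60th percentile filter, 1 without the arrays numbered 3, 0 when fitted alone, and 0 to 1069 on leaving out 1 array, the highest without CT12 array 3 and the lowest without ZT12 arrays 2 or 3. For CT6 against ZT6 it was 0, and 0 to 3 on leaving out 1 array, the highest without CT6 array 3. For the difference of time effects it was 1, and 3 without the arrays numbered 3 and 1 to 62 on leaving out 1 array, the highest without CT12 array 3. The replicate block gave counts of 11 for ZT12 against ZT6, 3 for CT12 against CT6, 8 for CT12 against ZT12 and 2 for the difference of time effects. With it Cdkn1a no longer passed (adjusted p = 0.0578, limma).

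Among single genes, Fos at ZT12 against ZT6 passed on leaving out any 1 of the 12 retina arrays, with adjusted p of 0.000274 to 0.0337. The CT12 minus CT6 difference of Nr4a1 ran from -0.58 (without CT12 array 3) to 1.59 (without CT12 array 1) on leaving out 1 array and was -0.70 without the arrays numbered 3. Of the 8 genes most like Egr1, 3 were still among the first 8 without CT12 array 1 and 4 by Spearman correlation. These calls of single genes under alternatives, list counts without CT12 array 1, and values of single probe sets and genes without CT12 array 1 or CT6 array 3, were chosen after seeing the data.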
